A study of Rattus norvegicus with 108 samples.

Results

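Oligodendrocyte precursors of the ventral dentate gyrus (venDG) were picked out of the ventral single-cell count matrix by the genes they contained. A cell was kept when at least 3 of the 6 precursor genes Pdgfra, Cspg4, Vcan, Ptprz1, C1ql1 and Gpr17 had a count, and when at most 1 of 8 genes of other cell types (Cx3cr1, P2ry12, Csf1r, Cldn5, Flt1, Aqp4, Gad1 and Gad2) had one. The rule kept 141 of 2058 ventral cells (6.85%). Both dentate gyri together held 3347 cells, and both totals leave out cell columns with a second sequencing suffix. The levels of these 14 genes chose the cells, so they are given here as a description and carry no test.

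The study asked which hippocampal cell types respond to the antidepressant fluoxetine, a serotonin reuptake inhibitor. Male Long-Evans rats, 2 months old, received fluoxetine at 18 mg/kg in their drinking water (FT) or plain water (Sham) for 6 weeks, and the labels name no other agent and no allele in either group. Dorsal and ventral dentate gyrus were micropunched, and each replicate, of which each treatment had 5 in the ventral region, was a pool of several animals, so the p-values below measure the spread between such pools. Transcripts were captured in droplets and counted as unique molecular identifiers (UMIs). The labels speak of nuclei only, while the study's methods describe whole cells and nuclei from the same tissue without saying which reaction held which.

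Oligodendrocyte precursors, also called NG2 glia after the product of Cspg4, are the dividing cells from which myelinating oligodendrocytes arise throughout life. They depend on platelet-derived growth factor acting on the receptor Pdgfra, carry a coat of chondroitin sulfate proteoglycans, and receive synaptic input from neurons through glutamate and GABA receptors. When they commit to differentiation they pass through a stage marked by Gpr17, Bmp4 and Enpp6 before the myelin genes rise.

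As a set, the 141 cells had the profile of precursors by genes that the rule did not use. Olig1, a transcription factor of the lineage, had a UMI in 74.5% of the precursors and in 14.4% of the other 1917 ventral cells. Pcdh15, a cadherin-related adhesion protein, had one in 89.4% against 23.4%, and Sox10, which all oligodendrocyte-lineage cells express, in 62.4% against 15.5%. Median depth was 4771 UMIs in precursors and 3157 in the other cells, so that depth differed beside these shares. The 518 ventral cells with at least 3 markers of mature oligodendrocytes had a similar median depth of 4642 UMIs. Among them, Pcdh15 was found in 29.7% of cells, Olig1 in 40.9% and Sox10 in 47.1%. In dorsal cells, where the authors deposited cell type names, the same rule kept 69 cells, and 59 of them (85.5%) carried the name OPC. It kept 67.8% of the 87 dorsal OPC cells, so some precursors fall outside it.

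Of the 141 precursors, 46 had exactly 3 of the 6 genes, 51 had 4, 43 had 5 and 1 had all 6. Cells just inside the rule, with exactly 3 genes, had Pdgfra in 69.6%, Cspg4 in 50% and Vcan in 52.2%. Of genes outside the rule, these 46 cells had Olig1 and Sox10 in 45.7% each and Pcdh15 in 73.9%, so their profile was less clear. Cells just outside the rule, with 2 genes, numbered 129 and had Pdgfra in 27.9%, Cspg4 in 33.3% and Vcan in 38.8%. Ptprz1 separated least, with a UMI in 100% of the 141 precursors, 85.3% of the 129 cells and 78.9% of ventral cells with at least 3 astrocyte markers. Another 22 cells had enough precursor genes but also 2 genes of other types, with Pdgfra in 68.2% and a median depth of 7730 UMIs. Flt1 was the most frequent of the allowed other-type genes and was found in 33 precursors (23.4%). Its share in the remaining ventral cells was 30.7%. The rule limited Flt1 in precursors, so these shares cannot be compared. Doublets were not called separately, and the limit on genes of other types was the only guard against them. No precursor shared its barcode with another reaction of either region.

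The genes that set precursors most apart from the rest of the ventral cells included adhesion proteins, matrix components and lineage regulators. Each was measured as the ratio of UMIs per 10000 between precursors and other cells within a replicate, over the 8 replicates with at least 5 precursors. Because the cells were selected by expression, these ratios are descriptive. Genes entered at a level of at least 0.5 UMIs per 10000 in the precursors themselves, which leaves out genes low in precursors. Among 4472 such genes outside the rule, 700 (15.7%) were higher in precursors in every replicate and 215 (4.81%) were lower in every replicate. The filter favours the higher side, so these counts cannot be weighed against each other. Tmem255b, a transmembrane protein, had the highest median ratio, 3.69 on the log2 scale (range 2.23 to 5.28 over replicates), with a UMI in 63.8% of precursors and 3.70% of other cells. Rlbp1, a retinaldehyde-binding protein, followed at 3.52, Nxph1, a secreted glycoprotein, at 3.48 and the collagen Col5a3 at 3.46. Ccnd1, which encodes cyclin D1, had a median ratio of 3.34, and its replicates ranged from 2.90 to 3.95 UMIs per 10000 in FT and from 1.42 to 5.36 in Sham.

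Known surface and matrix genes of precursors were mostly higher. Of 23 such genes outside the rule, 16 were higher in precursors in every replicate and 0 were lower. Their median log2 ratio was 1.81, beside 0.30 over the 4472 genes. The lists here too hold only genes that met the filter on the precursor level. They included the heparan sulfate sulfatase Sulf2 (3.0), the adhesion molecule Cntn1 (2.98), Megf11 (2.88) and the proteoglycan Cspg5 (2.79). Of 18 lineage transcription factors, 8 were higher in every replicate, among them Olig1 (2.74), Olig2 (1.90) and Sox6 (1.94), which holds precursors in the undifferentiated state, and 1 was lower, Id3 (−1.21). Of 25 glutamate and GABA receptor genes, 8 were higher in every replicate and 0 were lower. The AMPA receptor subunit Gria4 had a ratio of 1.1 and the kainate receptor subunit Grik1 a ratio of 1.22. Myelin genes ran the other way. Of 18 myelin and mature oligodendrocyte genes, 12 were lower in every replicate, with ratios of −3.49 for the transferrin gene Tf and −2.26 for Mog, which encodes a myelin surface glycoprotein. Precursors still held myelin transcripts, with a UMI of Mobp in 78.0% of them and of Mbp in 100%. The same transcripts were found in cells that should lack them, since ventral cells with microglial markers had Mobp in 75.6% at a median depth of 4405 UMIs, so these shares cannot be read as expression.

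**Figure D1:**
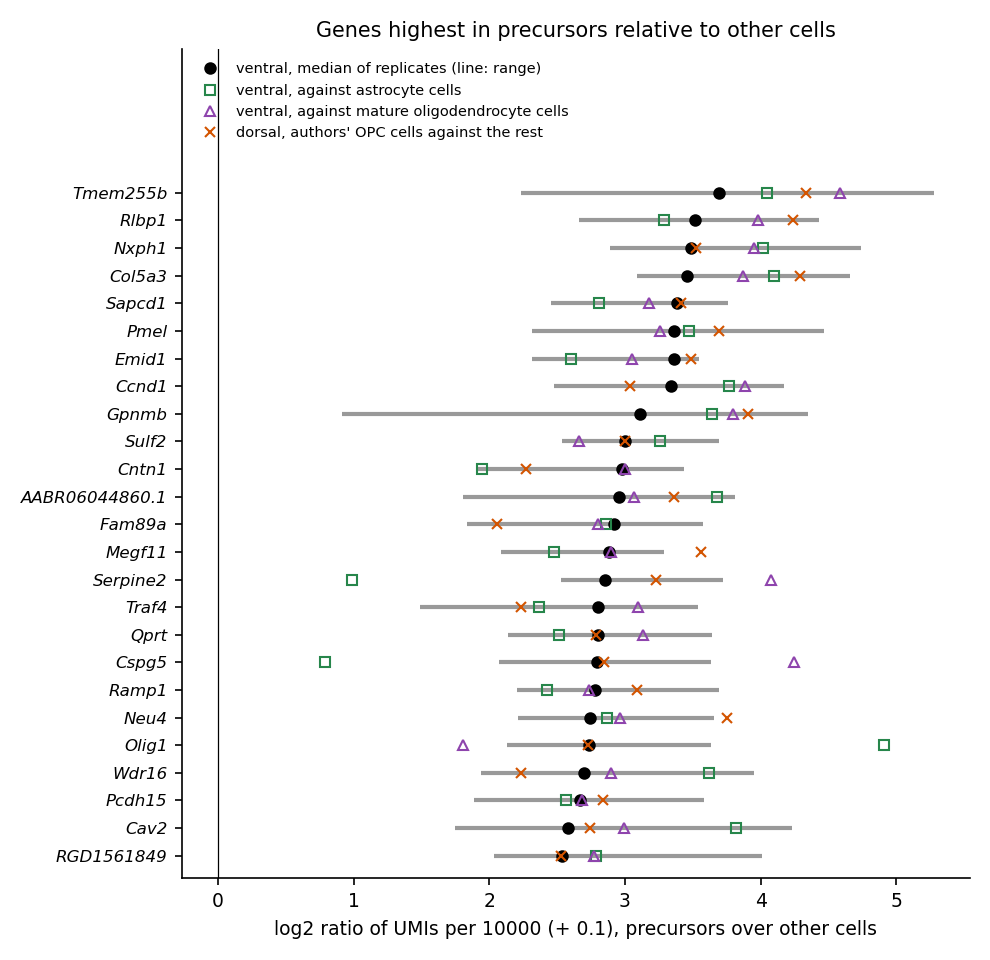
Each row is 1 of the 25 genes with the highest median ratio, and the x axis is the log2 ratio of UMIs per 10000 (plus 0.1) in precursors over other cells. Black points are medians of 8 ventral replicates with their range as a grey line, squares and triangles compare precursors with ventral astrocyte and mature oligodendrocyte cells, and crosses show dorsal OPC cells against the rest. The symbols of every gene lie to the right of 0, with Cspg5 (0.79) and Serpine2 (0.99) closest to it against astrocytes.

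All 25 leading genes, shown in the plot of log2 ratios, were also higher by median when precursors were set against mature oligodendrocyte cells alone or against astrocyte cells alone. Against astrocytes, 21 of the 25 were higher in every replicate. The smallest median ratios there belonged to Cspg5 (0.79) and Serpine2 (0.99), a serine protease inhibitor. In the dorsal dentate gyrus, in the cells that the authors named OPC, all 25 genes were higher than in the remaining dorsal cells, with a lowest median ratio of 2.06 over 7 replicates. This too is a description, since those names were given from expression.

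No shift in the share of precursors beyond the spread between replicates was found. Precursors made up 6.61%, 4.69%, 7.87%, 9.09% and 8.40% of ventral cells in FT replicates 1 to 5. In Sham they made up 6.34%, 5.11%, 9.52%, 10.4% and 0% in replicates 1 to 5. The FT values lay inside the Sham range. Replicates 1 and 2 of each treatment pooled 2 reactions, and in the second of them, by library number, 88.8 to 95.9% of ventral cells had under 2% of their UMIs from ribosomal protein genes. Precursors made up 0.565 to 2.70% of the cells of these second reactions and 7.29 to 10% of the first. With first reactions alone, FT replicate 2 stood at 8.21%, and the means were 8.42% ± 0.447 in FT and 7.45% ± 4.34 in Sham (n = 5 each, exact permutation p = 0.897). Sham replicate 5 had 0 precursors among 59 cells, which allows a share of up to 5.08% by the limit of 3 counts and of 6.06% by the exact 95% binomial interval, and Sham replicate 3 had 4 among 42 cells, with an interval of 2.66 to 22.6%. The mean was 7.33% ± 1.74 (SD, n = 5) in FT and 6.29% ± 4.14 (n = 5) in Sham (exact permutation test, two-sided, p = 0.667, adjusted p = 0.946 over 6 comparisons). The sign of the difference turned without Sham replicate 5 (−0.53 percentage points, FT minus Sham). It also turned when every cell was thinned to 2000 UMIs, which left out 377 FT and 271 Sham cells (5.21 to 7.74% in FT, 0 to 17.9% in Sham, exact permutation p = 0.563). Intervals and limits here cover counting error only.

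FT precursors yielded more UMIs per cell than Sham precursors, before adjustment for the number of comparisons. Deeper sequencing and more RNA per cell cannot be told apart. Median UMIs per precursor were 6779, 5291, 4812, 5263 and 5472 in FT replicates 1 to 5. They were 3654, 4196, 4341 and 4685 in Sham replicates 1 to 4, of which replicate 3 had 4 precursors. The groups did not overlap, and the means differed by 1304 UMIs (5523 ± 743, n = 5, against 4219 ± 429, n = 4, exact permutation p = 0.0159), a difference that did not pass adjustment over the 6 comparisons (adjusted p = 0.0952). The exact permutation p was 0.0536 without Sham replicate 1. Other ventral cells also had a higher median in FT, 3753 ± 1169 against 2950 ± 613 UMIs, with overlapping groups (n = 5 each, exact permutation p = 0.214). The ratio of precursor to other-cell depth was 1.59 ± 0.53 in FT and 1.44 ± 0.21 in Sham (n = 5 and 4, exact permutation p = 0.611). The rule counts detected genes, and a deeper cell meets it more readily. With at least 4 precursor genes required, the difference was 602 UMIs and the groups overlapped (exact permutation p = 0.389).

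**Figure D2:**
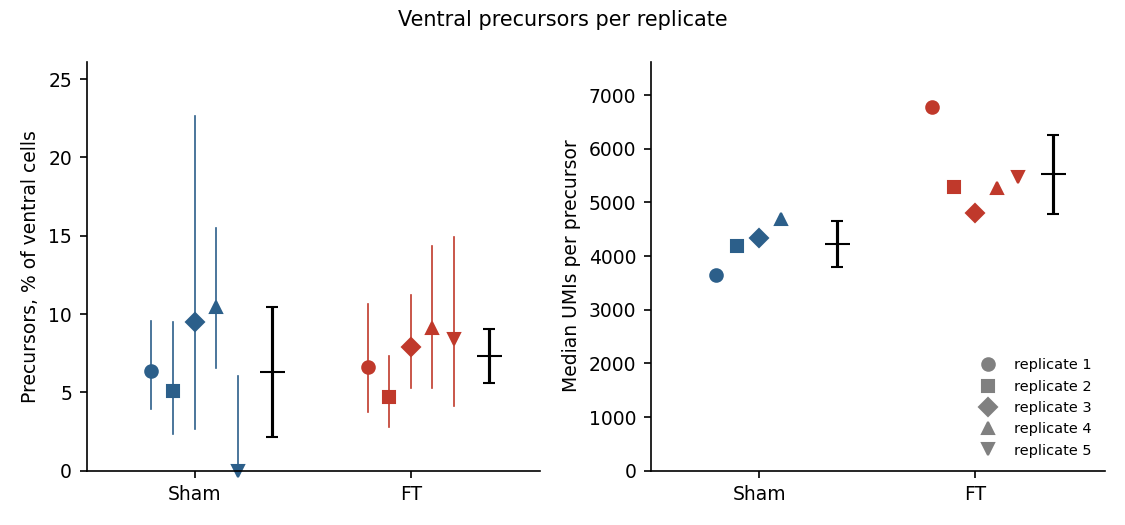
Left, precursors as a percentage of ventral cells in each replicate, with exact 95% binomial intervals as thin lines. Right, median UMIs per precursor in each replicate with a precursor. Blue symbols are Sham, red symbols are FT, symbol shapes give the replicate number, and black bars show the mean ± SD. The shares overlap, while the depths of the FT replicates (4812 to 6779) all lie above those of Sham (3654 to 4685).

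No difference in the composition of precursor transcripts exceeded the spread between replicates, over the 5 FT and 3 Sham replicates (1, 2 and 4) with at least 5 precursors. Genes of oxidative phosphorylation, the mitochondrial pathway that makes ATP, took 1.62%, 2.26%, 2.08%, 1.94% and 1.72% of precursor UMIs in FT replicates 1 to 5 and 2.28%, 1.22% and 2.04% in Sham replicates 1, 2 and 4. Ribosomal protein genes took 3.54 to 5.48% in FT and 3.26 to 4.80% in Sham. Mitochondrially encoded transcripts took 4.77 to 6.31% in FT and 5.32 to 8.74% in Sham. In each case the groups overlapped. Differences, FT minus Sham, were 0.078 percentage points for oxidative phosphorylation (exact permutation p = 0.804), 0.405 for ribosomal protein genes (exact permutation p = 0.518) and −1.02 for mitochondrially encoded transcripts (exact permutation p = 0.304). The last value rested on single Sham replicates. It was −0.094 without Sham replicate 1, and −1.81 without Sham replicate 4, where the groups no longer overlapped (exact permutation p = 0.0476, the smallest that 5 against 2 replicates allow, adjusted p = 0.190). Precursors in which ribosomal protein genes took under 2% of UMIs, as they did in 35.1% of the other ventral cells, made up 21.8% ± 14.4 of FT (n = 5) and 22.8% ± 18.9 of Sham precursors (n = 3, exact permutation p = 0.946).

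**Figure D3:**
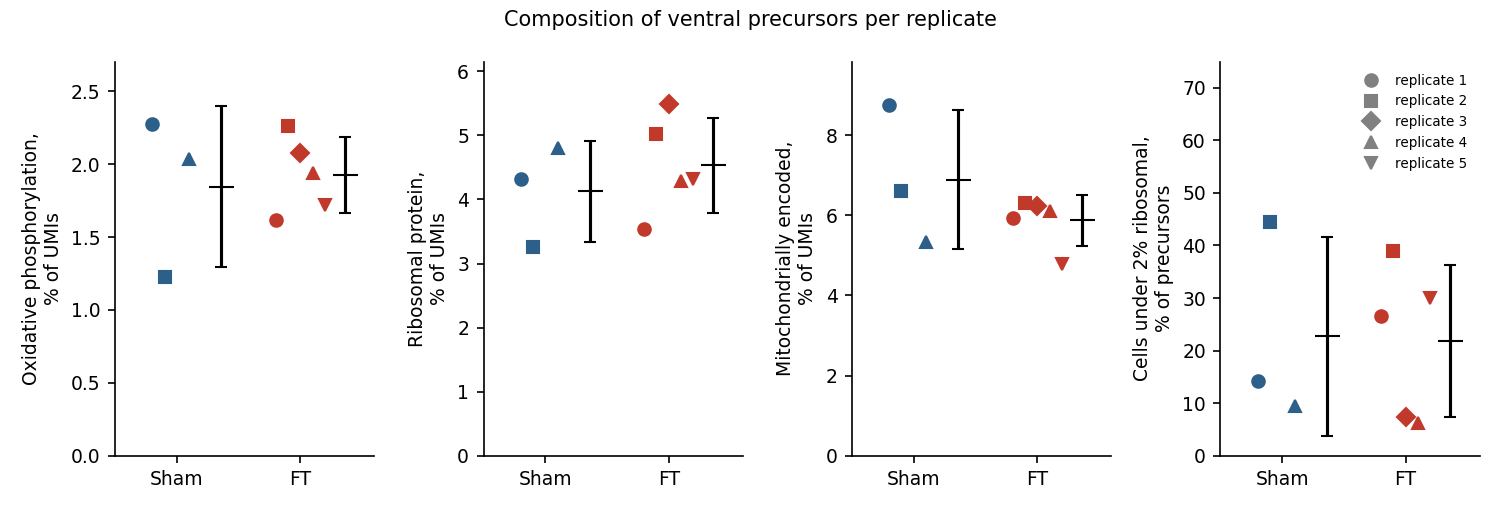
Share of precursor UMIs from oxidative phosphorylation, ribosomal protein and mitochondrially encoded genes, and share of precursors under 2% ribosomal UMIs, in each replicate with at least 5 precursors. Blue symbols are Sham, red symbols are FT, shapes give the replicate number and black bars the mean ± SD. In all 4 panels FT and Sham overlap.

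Gene by gene, 3 transcripts passed the test between FT and Sham precursors, all lower in FT, and each owed most of its Sham level to a few single cells. UMIs were summed over precursors within each replicate and compared by edgeR's quasi-likelihood test in the 4492 genes whose mean level reached 0.5 UMIs per 10000, and a gene passed at an adjusted p of at most 0.2 and a change of at least 0.32 on the log2 scale. The summed depth was 50391 to 130069 UMIs in the FT replicates (86 cells) and 42256 to 96975 in the Sham replicates (51 cells). The 3 genes were 0.0668% of those tested, and 0 passed in the direction of higher expression in FT. An unadjusted p under 0.05 was reached by 162 genes (3.61%), of which 76 were higher and 86 lower in FT. Over all genes the median log2 fold change was 0.01 and the median standard error 0.47, and 51.0% of genes were above 0.

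Mthfd1l encodes a mitochondrial enzyme of folate metabolism. Its level was 1.57, 2.90, 1.31, 2.19 and 1.19 UMIs per 10000 in FT replicates 1 to 5. It was 22.6, 2.37 and 5.88 in Sham replicates 1, 2 and 4. Sham replicates 1 and 4 were above every FT replicate, whereas Sham replicate 2 lay below FT replicate 2, so the groups overlapped. The log2 fold change was −2.54 ± 0.46 (SE, edgeR adjusted p = 0.0498). Of the 196 UMIs in Sham replicate 1, 96 came from a single precursor and 70 from another, and a precursor of Sham replicate 4 gave 32 of that replicate's 57. Among FT precursors no such cell was seen, and the sums were 15, 25, 17, 20 and 6 UMIs. Mthfd1l was found in 35 of 86 FT precursors (40.7%) and 29 of 51 Sham precursors (56.9%). In the other ventral cells its level was 1.43 UMIs per 10000 in FT and 1.57 in Sham, and the highest single cell held 47 UMIs.

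Slc12a8, of the cation and chloride cotransporter family, had 0, 1, 2, 3 and 1 UMIs in FT replicates 1 to 5 and 5, 1 and 48 in Sham replicates 1, 2 and 4. A single precursor of Sham replicate 4 held 44 of the 61 UMIs (72.1%). Without that cell's replicate the gene did not pass. The log2 fold change over all replicates was −3.66 ± 0.72 (edgeR adjusted p = 0.0648). Adat1, an adenosine deaminase that edits transfer RNA, had 3, 5, 4, 2 and 3 UMIs in FT and 60, 0 and 16 in Sham replicates 1, 2 and 4, with 59 of 93 UMIs (63.4%) in 1 precursor of Sham replicate 1. That precursor, with 3593 UMIs in all, was also the one with 96 UMIs of Mthfd1l. Sham replicate 2 had no Adat1 count and lay below every FT replicate. The log2 fold change of Adat1 was −3.0 ± 0.63 (edgeR adjusted p = 0.104).

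Such concentration in 1 cell was rare among the genes of these precursors. The highest cell held a median of 6.12% of a gene's UMIs, and only 58 of 4492 genes had 25% or more in 1 cell, all 3 called genes among them. When the highest precursor for each gene in each replicate was set to the value of the next one, an alternative chosen after seeing the data, 0 of 4371 genes passed (104 at an unadjusted p under 0.05). Mthfd1l then had a log2 fold change of −2.44 (edgeR adjusted p = 0.925), and Slc12a8 and Adat1 fell under the minimum level. DESeq2 called 1 gene, Slc12a8 (adjusted p = 0.169), and limma on the log2 scale called 0 (139 at an unadjusted p under 0.05). With replicate number as a block, edgeR called 0 genes (101 at an unadjusted p under 0.05). Only replicates 1, 2 and 4 then carried the comparison. No gene passed without FT replicate 1 or without FT replicate 5 (156 and 142 at an unadjusted edgeR p under 0.05), and without Sham replicate 1 only Slc12a8 did.

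**Figure D4:**
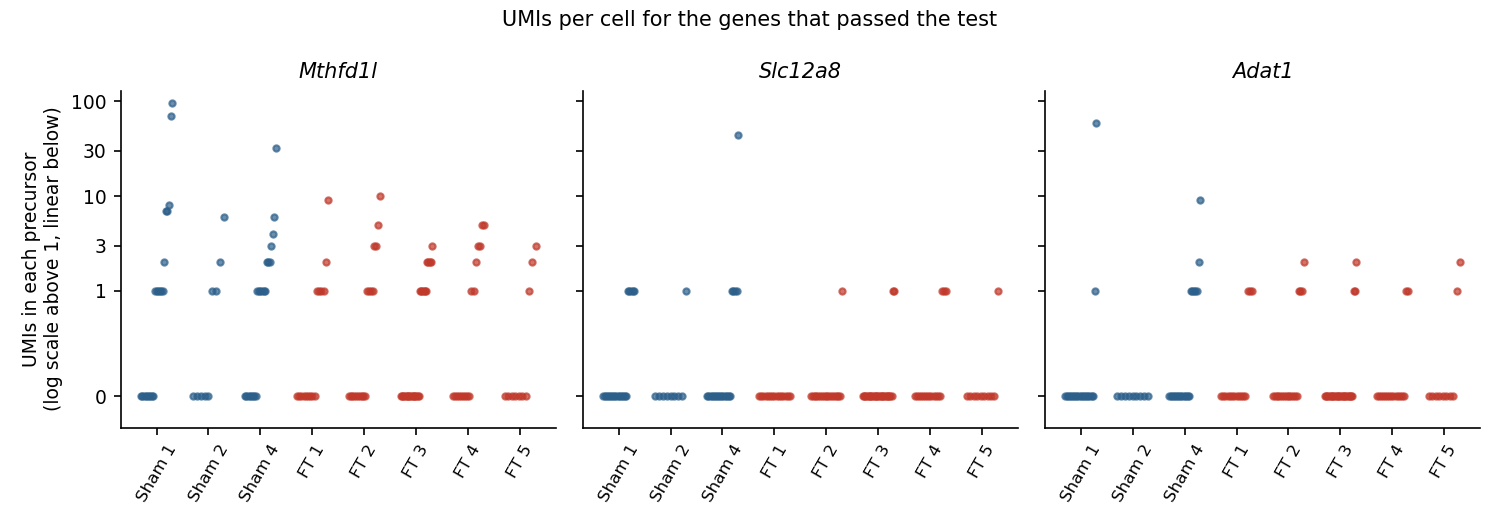
UMIs of Mthfd1l, Slc12a8 and Adat1 in every precursor of the tested replicates, 1 point per cell, with Sham in blue and FT in red. The y axis is logarithmic above 1 and linear below it. The Sham values above 30 come from 3 cells for Mthfd1l (96, 70 and 32), 1 for Slc12a8 (44) and 1 for Adat1 (59).

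The next largest differences had groups that did not overlap, at low counts, and none passed the test. In all 143 of 4492 genes (3.18%) had FT and Sham values that did not overlap, 66 higher (1.47%) and 77 lower (1.71%) in FT. Map2k4, a kinase upstream of JNK, had 13, 6, 13, 14 and 3 UMIs in FT replicates 1 to 5 and 0, 2 and 5 in Sham replicates 1, 2 and 4 (log2 fold change 1.73 ± 0.61, edgeR adjusted p = 1.0). Cyb5a, which encodes cytochrome b5, had 12, 17, 19, 11 and 10 UMIs in FT and 4, 2 and 7 in Sham (1.41 ± 0.45). Per 10000 UMIs every FT replicate was above every Sham replicate for both genes. Other genes with higher FT values by the same rule were the splicing helicase Ddx46 (1.68), Rilpl1 (1.5), the receptor phosphatase Ptprj (1.44), the ubiquitin-activating enzyme Uba1 (1.44), Pitpnc1 (1.41), Cachd1 (1.32) and the potassium channel Kcnt2 (1.28). For Rilpl1, 37 of 86 UMIs came from 1 precursor of FT replicate 3.

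On the lower side, Apc2, a relative of the tumour suppressor APC, had 2, 3, 7, 1 and 4 UMIs in FT replicates 1 to 5 and 7, 7 and 12 in Sham replicates 1, 2 and 4 (log2 fold change −1.61 ± 0.52, edgeR adjusted p = 1.0). Kdelr1, a receptor that returns proteins to the endoplasmic reticulum, had 6, 6, 6, 5 and 4 UMIs in FT and 10, 5 and 23 in Sham (−1.41 ± 0.42). Relative to depth, each Sham replicate exceeded each FT replicate for both genes. The same held for the peptidase Dpp8 (−1.67), the splicing factor Prpf38b (−1.44), the adaptor Efs (−1.38), Bccip (−1.36) and Ogfod3 (−1.36). These genes were chosen for their size and lack of overlap, and their edgeR adjusted p was 1.0 in each case.

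Of 7 receptor and signalling genes tested outside the rule, 1 had groups that did not overlap, beside 3.18% of all genes. Notch1, a receptor whose signalling restrains differentiation of precursors, stood at 0.31, 0.70, 0.85, 0.66 and 0.79 UMIs per 10000 in FT replicates 1 to 5. It stood at 1.38, 0.95 and 2.06 in Sham replicates 1, 2 and 4. All Sham values were above all FT values, but the change did not pass (log2 fold change −1.21 ± 0.43, unadjusted p = 0.00891, edgeR adjusted p = 1.0). Of the 7 genes, 5 had a log2 fold change above 0 and 2 below, with a median of 0.34. The neurotrophin receptor Ntrk2 had 4.62 to 6.46 UMIs per 10000 in FT and 3.31 to 4.64 in Sham, and the neuregulin receptor Erbb4 4.17 to 5.95 and 2.65 to 5.92. Neither passed the test. The rule gene Pdgfra itself had 4.54 to 7.14 in FT and 5.21 to 7.01 in Sham.

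Lineage regulators and the proteoglycan coat lay close to 0. Of 18 lineage transcription factors, 10 had values above 0 and 8 below (median log2 fold change 0.09), and of 23 surface and matrix genes, 12 and 11 (median 0.04). Olig1 ranged from 4.37 to 8.30 UMIs per 10000 in FT and from 3.55 to 5.76 in Sham, Sox10 from 1.54 to 2.74 and from 2.65 to 3.51, and Cspg5 from 6.30 to 8.44 and from 3.08 to 8.97. All 3 overlapped between treatments. Among genes of committed and premyelinating cells, 4 of 9 were above 0 and 5 below (median −0.01), and Bmp4, a growth factor of that stage, ranged from 0.84 to 1.62 in FT and from 0.24 to 1.5 in Sham. Of 18 myelin genes, 9 were above 0 and 9 below (median −0.08). Mbp, which encodes myelin basic protein, stood at 19.3, 12.7, 24.3, 21.2 and 23.2 UMIs per 10000 in FT and at 20.5, 45.7 and 22.6 in Sham replicates 1, 2 and 4. Only Sham replicate 2 was outside the FT range. No gene of these lists passed the test.

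No gene passed the test among 20 channel and 25 receptor genes through which precursors sense neuronal activity. Separate groups were seen for 2 of them, both ion channels, beside 3.18% of all genes. That count is too small to set these lists apart from other genes. Kcnq3, a subunit of the M-type potassium channel, had 3.36, 2.67, 3.77, 3.18 and 3.57 UMIs per 10000 in FT replicates 1 to 5. It had 1.96, 1.89 and 0.93 in Sham replicates 1, 2 and 4. Every FT replicate was above every Sham replicate, and the change did not pass (log2 fold change 1.08 ± 0.36, unadjusted p = 0.00608, edgeR adjusted p = 1.0). Of 20 ion channel genes tested, 14 were above 0 and 6 below (median 0.28). The second with separate groups was the potassium channel Kcnh8 (log2 fold change 0.55 ± 0.39, unadjusted p = 0.168, edgeR adjusted p = 1.0). Of 25 glutamate and GABA receptor genes, 15 were above 0 and 10 below (median 0.17). The AMPA receptor subunit Gria2 ranged from 7.53 to 13.3 UMIs per 10000 in FT and from 9.59 to 11.1 in Sham, and the kainate subunit Grik5 from 0.92 to 1.42 and from 0.12 to 0.95 (log2 fold change 1.29 ± 0.52, edgeR adjusted p = 1.0).

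Fluoxetine blocks the serotonin transporter, and its gene Slc6a4 had 3 UMIs in all tested precursors, too few to compare. The serotonin receptor gene Htr2a had 1.36 to 3.24 UMIs per 10000 in FT and 1.24 to 2.37 in Sham, overlapping, with a log2 fold change of 0.43 ± 0.38. Htr4 had a log2 fold change of 0.42 ± 0.52, and Htr1a and Htr6 had 0 UMIs. Htr2a was no marker of precursors, since its median log2 ratio to other ventral cells was 0.14.

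Metabolic and stress genes gave no call either. Beside 51.0% of all genes above 0, 63 of 85 ribosomal protein genes were above 0 and 22 below (median 0.13). At an unadjusted edgeR p under 0.05, 3 of them were lower in FT and 1 higher, beside 3.61% of all genes at that level. Groups did not overlap for 2 of them, Rpl31 (−1.08) and Rps27l (−0.86), both lower in FT, beside 3.18% of all genes. Of 71 oxidative phosphorylation genes, 39 were above 0 and 32 below (median 0.02). Separate groups were seen for 1 of the 71, Cox7a2l (0.76, higher in FT), beside the same 3.18% of all genes. Among 15 mitochondrially encoded genes 3 were above 0 and 12 below (median −0.20), and among 8 cholesterol synthesis genes 2 and 6 (median −0.32), including the early pathway enzyme Hmgcs1 (−0.74 ± 0.43). Heat shock and stress genes had 12 of 14 above 0 (median 0.21). The chaperone gene Hsph1 stood at 1.78, 12.4, 3.0, 1.42 and 1.19 UMIs per 10000 in FT replicates 1 to 5 and at 1.15, 0.95 and 2.68 in the Sham replicates, so that FT replicate 2 alone stood far above the rest. Of 12 immediate early and activating factors, 8 were above 0 and 4 below (median 0.28). Jun was highest in FT replicate 2 (3.82) and Fos in FT replicate 3 (32.6), while the remaining FT values of Fos, 5.48 to 9.45, lay inside the Sham range of 1.42 to 14. The 13 tested genes that the study singled out in single-cell data, chosen in dorsal cells of other types, ran from −0.38 for Uqcrq, a subunit of respiratory complex III, to 0.42 for Ntrk2, and none passed.

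**Figure D5:**
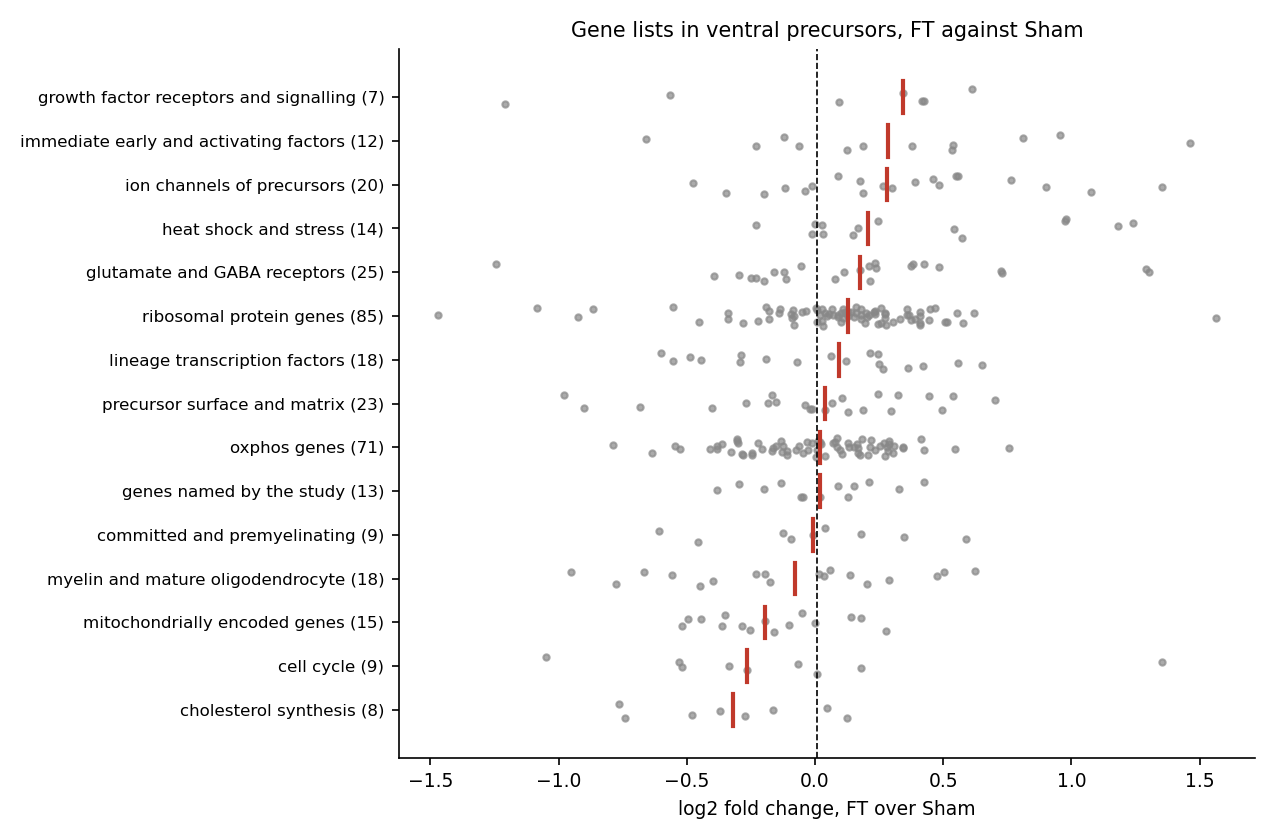
Log2 fold change, FT over Sham, of each tested gene (grey points) in 15 gene lists, with the number of genes in parentheses and the list median as a red bar. The dashed line marks the median of all 4492 genes (0.01). The medians run from −0.32 for cholesterol synthesis to 0.34 for growth factor receptors and signalling.

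Few precursors held transcripts typical of dividing cells. A UMI of Mki67 or Top2a, which mark proliferating cells, was found in 14 of 141 precursors, 5 in FT (1, 1, 3, 0 and 0 in replicates 1 to 5) and 9 in Sham (3, 4, 0, 2 and 0). The replicate counts overlapped. Of the 14, 12 held Top2a and 2 held Mki67. These 14 cells also had higher levels of Pcna, a replication factor, than the other 127 (2.89 against 0.90 UMIs per 10000) and of Cdk1 (0.80 against 0.02). Only 7 of the 14 held Pcna and 3 held Cdk1. Ccnd1 was lower in the 14 cells (2.41 against 3.54 UMIs per 10000). Top2a had a UMI in 8.51% of precursors and 3.60% of other ventral cells, whereas Mki67 had one in 1.42% and 2.56%, so that the share with Mki67 was not above that of other cells. Of 9 cell cycle genes tested between treatments, 3 were above 0 and 6 below (median −0.27).

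Summed levels of markers of other cell types in precursors overlapped between treatments for every type. The rule itself held down the astrocyte, microglial, endothelial and neuronal sums, since its other-type genes are among those markers. Their part in the results above was not tested. The 2 haemoglobin genes Hba1 and Hbb summed to 1.59 to 76.4 UMIs per 10000 in FT, with FT replicate 3 at the top, and to 2.78 to 12.8 in Sham. The 8 astrocyte markers summed to 6.95 to 10.1 in FT and 3.08 to 12.7 in Sham, the 8 microglial markers to 0.92 to 8.71 and 1.86 to 4.26, the 8 mature oligodendrocyte markers to 4.38 to 8.92 and 5.16 to 15.4, and the 7 neuronal markers to 5.33 to 16.0 and 6.81 to 13.5. Fibroblast markers summed to at most 0.47, with the defining marker Dcn at 0. Endothelial, mural and granule neuron markers summed to at most 3.77, 1.38 and 1.23.

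Treatment effects in ventral precursors were then set against those in dorsal precursors found by the same rule, with 4 FT and 2 Sham dorsal replicates of at least 5 cells. No gene of 4457 passed the test of the difference between regions in edgeR (164 at an unadjusted p under 0.05) or in DESeq2 (85). Mthfd1l had the smallest p. Its log2 fold change was −2.54 ± 0.46 in ventral and 1.96 ± 0.84 in dorsal precursors, a difference of −4.50 (unadjusted p = 0.000115, edgeR adjusted p = 0.514). Notch1 (−1.21 ventral, 0.97 ± 0.60 dorsal) and Kcnq3 (1.08 ventral, −0.18 ± 0.51 dorsal) did not pass either (edgeR adjusted p = 0.963 and 0.999).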

How the data were processed

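The authors aligned and counted the 10x Genomics 3′ reads with Cell Ranger (rn5, per the labels) and deposited tables of raw counts (UMIs per gene and cell), with a cell type name for each dorsal cell only. All columns were matched to samples. The 170 cell columns with a second sequencing suffix were left out, and 0 of them met the rule. Counts were summed over the precursors of each replicate with at least 5 of them and tested with edgeR 4.0.16 (TMM, quasi-likelihood, Benjamini-Hochberg) in R 4.3.3, with DESeq2 1.42.0 and limma 3.58.1 as alternatives. Single values were compared by exact permutation of replicates in Python 3.11.15 with numpy 2.4.6, and binomial intervals came from scipy 1.17.1. On simulated counts, 19.1% of genes changed 2-fold and 86.7% of genes changed 4-fold were recovered, with 3 and 21 unchanged genes called beside them. The simulation gave all genes the same spread between replicates relative to their level, and no concentration of counts in single cells. It therefore cannot give the recovery in the real pools. Genes were named as all those called, filled up to 10 per direction with the largest changes at an unadjusted p under 0.05 and no overlap, plus genes of fixed lists. Some genes that met this rule are not reported here. The rule, lists and named genes were chosen with earlier results of these data known. Marker ratios used a pseudocount of 0.1 UMIs per 10000. The study's own test was a t-test on log values, for which the count model was used here instead.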

Additional observations from a re-analysis of the deposited data

Results flagged for a closer look

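Of 38 sets of replicate values checked for a replicate far from the rest of its group, 3 stood out, where chance gives about 1 in 20. In FT replicate 3, Hba1, a haemoglobin gene, stood at 49.4 UMIs per 10000 in precursors, with 6.26 in the nearest FT replicate. In the same replicate Rilpl1 stood at 3.23 UMIs per 10000, with 1.19 in the nearest, and 37 of its UMIs came from 1 precursor. In FT replicate 5, mitochondrially encoded transcripts took 4.77% of precursor UMIs, with 5.94% in the nearest FT replicate. Their causes were not tested.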

How the results depend on the processing

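Over 145 alternatives to the main results, the marker ranking included, 105 gave the same reading. For genes called this meant a similar count, and for single values the same direction and side of the threshold. Of the rest, 18 reversed direction, 17 were weaker and 4 stronger, and 1, the marker ranking against astrocytes, moved. The count of 3 genes called became 1 at an adjusted p of 0.05, with DESeq2, with replicates 3 to 5 (where Sham is replicate 4 alone, assumed to vary like FT), with at least 4 precursor genes, and with replicates 1 and 2, where the gene was Arhgap8 and higher in FT. It became 0 with limma, with at least 2 precursor genes and with the highest cell of each gene lowered (chosen after seeing the data). It became 15 with no minimum level (9 higher, 6 lower), and was 0 to 3 with a replicate left out. With none of the 8 other-type genes, 2 genes were called, Gsta4 and Itih3, and the 3 genes above were not. Precursors under 2% ribosomal UMIs could not be fitted, since only 1 replicate had 5 of them. The interaction count of 0 became 12 with no minimum level, 1 with the authors' dorsal OPC cells and 0 to 1 with a replicate left out (1 without Sham replicate 2).

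The share difference ran from −0.53 to 2.09 points with a replicate left out and was −2.03 when thinned (chosen after seeing the data). The depth difference ran from 990.5 to 1482 UMIs with a replicate left out, and was 824 by means over cells (exact permutation p = 0.0317), 669 with replicates 3 to 5, 602 and 654 with at least 4 and 2 precursor genes, and 849 with none of the other-type genes. Differences with a replicate left out were −0.23 to 0.29 points for oxidative phosphorylation, −0.031 to 0.74 for ribosomal protein genes, −1.81 to −0.094 for mitochondrially encoded transcripts and −7.52 to 9.94 for cells under 2% ribosomal UMIs. With replicates 3 to 5 they were −0.12, −0.10, 0.38 and 5.03 in that order, against 1 Sham replicate and so with no test. Mitochondrially encoded transcripts differed by 0.097 points with none of the other-type genes, and cells under 2% ribosomal UMIs by 4.41 with first reactions and 8.11 with at least 4 precursor genes. Against astrocytes, 11 of the 25 leading genes were shared. Of 30 named genes, 28 never changed sign. Dnajb1 turned with replicates 3 to 5 (−0.16), and Hba1 without FT replicate 3 (−0.13, up to 2.23 without Sham replicate 2), with replicates 1 and 2 (−0.22), with at least 4 precursor genes (−0.32) and with the highest cell lowered (−0.065). The cause of these changes was not tested.

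Deviations of same-numbered FT and Sham replicates had correlations of −0.110, −0.140 and −0.0057 for replicates 1, 2 and 4. These are too few to decide whether replicate numbers pair the samples. With a replicate block, 0 genes were called, 2 for the interaction, the depth difference was 1317 UMIs (exact permutation p = 0.125, the smallest possible) and cells under 2% ribosomal UMIs differed by 1.18 points. The tested pools held 9 to 27 cells. Of simulated 2-fold and 4-fold changes, 19.1% and 86.7% were recovered, with 3 and 21 false calls, under the same spread for all genes.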

Other observations

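Precursors with under 2% ribosomal UMIs differed in profile from the rest. There were 28 such cells among 141 (17 of 86 in FT and 11 of 55 in Sham), with a median of 1942 UMIs against 4940 in the other 113. In these 28 cells Gria2 stood at 20.4 against 8.23 UMIs per 10000 and Snap25, a synaptic protein, at 5.97 against 2.33. Snap25 was nevertheless found in a smaller share of the 28 cells (42.9% against 60.2%). The astrocyte marker Slc1a2 was also higher in the 28 cells (2.45 against 0.15, found in 25% against 6.19% of cells). Aqp4, an astrocyte marker that the rule limited, was lower (0.11 against 0.45, found in 3.57% against 7.08%). Olig1 ran the other way (1.17 against 6.47), as did Bmp4 (0.32 against 1.29) and Ccnd1 (0.53 against 3.89). Pdgfra (4.48 against 5.98) and Pcdh15 (6.18 against 7.04) were closer. The comparison is descriptive, since detection of the rule genes and depth both entered the choice of cells.

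Bmp4 or Enpp6 had a UMI in 84 of 141 precursors, from 50 FT and 34 Sham cells. Bmp4 was found in 36.9% of precursors and 6.94% of other ventral cells. Enpp6 was found in 36.2% of precursors, but also in 23.8% of cells with microglial markers (median depths 4771 and 4405 UMIs) and in 36.5% of mature oligodendrocyte cells, so its UMI alone marks no stage here. These 84 cells had 0.28 UMIs of Opalin, a late oligodendrocyte gene, per 10000 against 0.04 in the other 57. Their Pdgfra levels were 5.84 and 5.65, and their median depths 5153 and 4161 UMIs. Gpr17 was detected in 6 precursors, of which 5 were among the 84.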
